A study of Rattus norvegicus with 113 samples.

Results

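The late effect of traumatic brain injury (TBI) in the rat hippocampus was compared between the post-injury intervals of 6 and 12 months. For every probe the difference between TBI and sham at 6 months was subtracted from the same difference at 12 months, so that a negative value means that TBI arrays stood lower against sham at 12 months than at 6 months. The comparison used 16 of the 113 arrays of the series, with 4 arrays in each of 4 groups. Male Sprague-Dawley rats received parasagittal fluid percussion injury, in which a pulse of fluid strikes the exposed dura on 1 side, or the same anesthesia and surgery without the pulse (sham), and the hippocampus was collected 6 or 12 months (1yr) later from separate rats. Naive rats, which had no surgery, were kept for the same times and gave 4 hippocampal arrays at each interval, and the cortex of sham and TBI rats gave 16 further arrays; both were used beside the comparison. Each array measured messenger RNA, amplified from its poly(A) tail, of 1 tissue sample with 1 dye. Because sham was measured anew at each interval, a reversal can come from the TBI arrays, from the sham arrays or from both, and the values of all 4 groups are therefore given.

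The hippocampus is needed for forming new memories and contains pyramidal neurons of the CA fields, granule neurons of the dentate gyrus, inhibitory interneurons, and glia. Microglia, its resident macrophages, sense damage through receptors such as Trem2, take up debris into lysosomes, and interact with the complement proteins that tag synapses and cells for removal. After an injury these cells and the astrocytes can stay altered long after the acute phase, while neurons can lose synapses or change the transcripts of their cytoskeleton and vesicles.

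Each group lay on 1 slide and in 1 row of it. Sham at 6 months shared slide 1 with naive at 6 months, TBI at 6 months shared slide 2 with naive at 12 months, and sham and TBI at 12 months shared slide 3, so that slide and group cannot be told apart for TBI against sham at 6 months, nor row and group at 12 months. Between 46.6% and 60.7% of the spots of an array were well above background and 0 were saturated. Of the 4 groups, sham at 12 months had the highest median share (58.5%, range 57.5% to 60.7%), and TBI at 12 months ranged from 53.3% to 57.5%. The net signal of the negative control spots was 43.4 to 49.0 in sham and 51.5 to 72.5 in TBI at 12 months, without overlap. At 6 months it was 55.7 to 105.2 in sham and 54.9 to 84.5 in TBI. The part of these array differences in the comparison was not tested. Replicates of a group correlated at 0.983 to 0.993. Of 14 genes of the dentate gyrus and CA fields on the array, 12 passed the filter for signal. Levels are log2 of the signal after subtracting the median of the array, and can be compared between arrays for 1 probe but not between probes.

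Of 25384 probes tested, 1202 (4.74%) differed in their TBI effect between 6 and 12 months at an adjusted p under 0.05 (limma). The TBI effect was lower at 12 months for 1093 (4.31%) and higher for 109 (0.429%), and the median over all tested probes was -0.07 log2. Of the 1202 probes, 1200 (4.73% of those tested) had a TBI effect of opposite sign at 6 and 12 months. Choosing probes by a large difference between the 2 effects favors opposite signs. Without that choice, 7110 of the 11501 named genes tested, read from 1 probe each, had opposite signs. The interval effects alone passed the same test in 44 probes (0.173%) at 6 months, 40 of them higher in TBI, and in 1 unnamed probe (0.00394%, A_44_P1368540, -0.70) at 12 months, while 3279 (12.9%) and 4861 (19.1%) probes had an unadjusted p under 0.05. Of the 44 probes called at 6 months, 37 were also called in the comparison of intervals. This overlap is partly built in, since the comparison contains the effect at 6 months from the same arrays. The median effect of the 44 was 0.64 at 6 months, where they were chosen, and -0.22 at 12 months. Across the 25384 probes, which share the arrays and their scaling, both interval effects had a Pearson correlation of -0.20.

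A reversal seen in the arrays themselves, in which all 4 TBI arrays lay beyond all 4 sham arrays on one side at 6 months and on the other side at 12 months, was found for 451 probes (1.78%). In 421 of them (1.66%) TBI was above sham at 6 months and below it at 12 months, and in 30 (0.118%) the order was the opposite. Separation in the same direction at both intervals was found for 16 probes (0.063%). The study's methods used a 1.4-fold change with p under 0.05 before adjustment. By these thresholds 893 probes (3.52%) passed at 6 months and 1076 (4.24%) at 12 months, of which 122 (0.481%) passed at both in opposite directions and 22 (0.0867%) in the same direction.

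The balance between higher and lower calls depended on how arrays were scaled, although lower calls were the more numerous under each scaling. With the 75th percentile of each array in place of the median, 705 probes were called, 278 higher and 427 lower at 12 months, so that the share of higher calls was 39.4% in place of 9.07%, and the reversals without overlap numbered 170 and 148. Quantile normalization gave 297 higher and 539 lower calls, and the values the authors deposited gave 279 and 522. The counts also depended on single arrays. The count for the difference between intervals was 2169 without TBI 12 months replicate 3 and 267 without sham 12 months replicate 2, and it left the range within 1.5 times the count without sham 6 months replicate 1 (767) or 4 (592), TBI 6 months replicate 2 (548), 3 (268) or 4 (531), sham 12 months replicate 4 (369), and TBI 12 months replicate 1 (451) or 2 (635). The count at 6 months lay between 15 and 66 when single arrays were left out, and the count at 12 months, 0 to 18 under the other alternatives, was 1267 without TBI 12 months replicate 3, 60 without sham 6 months replicate 1 and 252 when only probes well above background in all 16 arrays were tested. When the naive arrays of both intervals were added to the fit, so that their spread entered the shared error, 3 unnamed probes (0.0118%) were called (A_42_P804822, A_44_P327758 and A_44_P370465), with 2222 (8.75%) at an unadjusted p under 0.05. The median spread within a group was 0.46 log2 for naive at 6 months and 0.14 to 0.20 for the other groups, and with the naive arrays of 12 months alone added the count was 623.

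**Figure D1:**
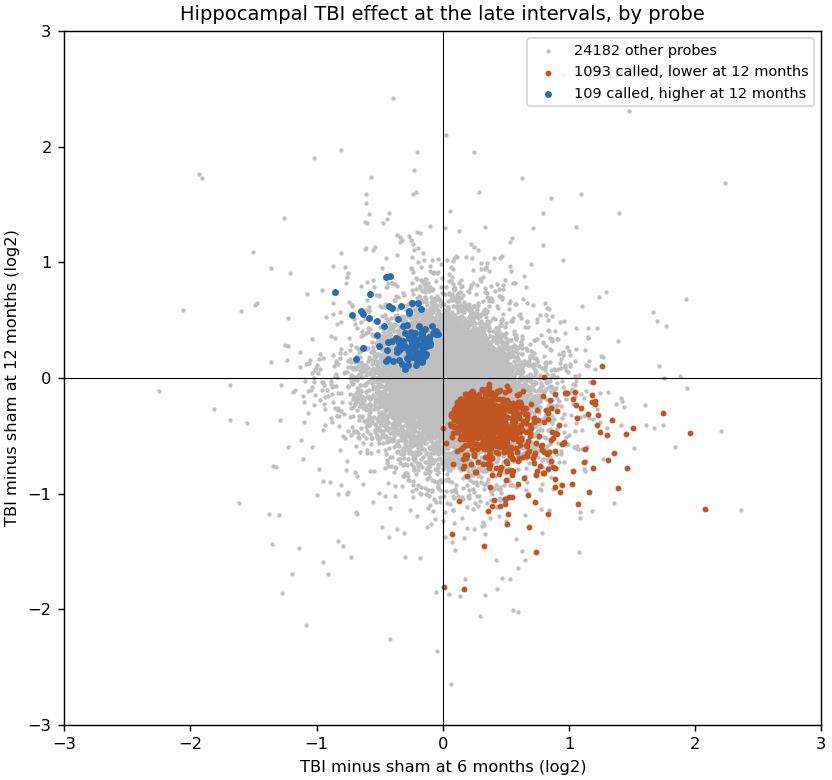
TBI minus sham at 6 months (horizontal axis, log2) against TBI minus sham at 12 months (vertical axis, log2) for the 25384 tested probes, with the 1202 probes called in the comparison of intervals in color. Of these, 1200 lie in the quadrants of opposite sign, which choosing probes by the difference favors, and 1093 (orange) are lower at 12 months. Beyond the axes lie 2 probes, none of them called.

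The genes whose TBI effect was lower at 12 months included markers of microglia and macrophages. Rose and fell are used for the TBI effect at 12 months against that at 6 months. Of 19 such genes tested, 7 fell at an adjusted p under 0.05 (36.8%, against 3.88% of all 11501 named genes tested) and 0 rose. Among the 7 were Aif1, Cd68, Tyrobp, Trem2, Ctss and Ptprc. The median of the 19 genes was 0.40 at 6 months, -0.29 at 12 months and -0.72 for the difference (all named genes 0.03, -0.04 and -0.06), and 18 of them had a positive value at 6 months and a negative value at 12 months, as did 38.5% of all named genes. Of the 19 genes, 2 to 3 were called under the other scalings, 1 with the replicate number as a block, and 0 without a filter or with all naive arrays added. Another background correction gave 6 calls, and 8 were made when all 16 arrays had to pass the filter. Leaving out single arrays gave 1 to 10, the median difference lying between -0.81 and -0.63 in all 25 alternatives. In pieces of tissue, a smaller number of cells of a type and less RNA per cell cannot be told apart.

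Plek, which encodes pleckstrin, a protein kinase C substrate of platelets and leukocytes, gave the smallest adjusted p of the microglial and leukocyte genes described. Its levels were 1.05, 0.68, 1.01 and 0.56 in the sham arrays and 1.73, 1.87, 1.86 and 1.65 in the TBI arrays at 6 months. At 12 months they were 1.68, 1.89, 1.65 and 1.55 in sham and 1.04, 1.17, 1.46 and 0.88 in TBI. The groups did not overlap at either interval, and the low arrays were the sham arrays at 6 months and the TBI arrays at 12 months. TBI was 1.94-fold higher than sham at 6 months (0.96 log2, SE 0.13, adjusted p = 0.0131) and 1.47-fold lower at 12 months (adjusted p = 0.0748), and the difference between intervals was -1.51 (SE 0.19, adjusted p = 0.0032).

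Cd68, a lysosomal membrane protein of phagocytes, had levels of 0.26, 0.69, 0.46 and 0.16 in sham and 1.10, 1.64, 1.52 and 1.56 in TBI at 6 months. At 12 months the levels were 1.04, 1.39, 1.17 and 1.92 in sham and 0.81, 1.30, 1.03 and 0.99 in TBI. At 6 months 1 sham array was not well above background. The groups were apart at 6 months (2.09-fold higher in TBI, adjusted p = 0.0352) and overlapped at 12 months, where the sham arrays spanned the range of the TBI arrays at 6 months. The difference between intervals was -1.41 (SE 0.26, adjusted p = 0.0157).

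The receptor Trem2 and its signaling adaptor Tyrobp moved by similar amounts. Trem2 levels ran from 5.09 to 5.58 in sham and 5.61 to 5.86 in TBI at 6 months, and from 5.49 to 5.90 in sham and 5.23 to 5.56 in TBI at 12 months, a difference between intervals of -0.73 (SE 0.17, adjusted p = 0.0319). Tyrobp gave -0.72 (SE 0.18, adjusted p = 0.0404). Neither gene separated the groups at 12 months, and the Tyrobp call was lost under all 3 other scalings and the Trem2 call under 1, and in 12 and 8 of the 16 fits that leave out 1 array. Aif1, the actin-bundling protein Iba1 used to stain microglia, was 6.28 to 6.65 in sham and 6.58 to 6.79 in TBI at 6 months, and 6.67 to 7.06 in sham and 6.11 to 6.62 in TBI at 12 months. Here the groups were apart at 12 months only, and the difference between intervals was -0.75 (SE 0.17, adjusted p = 0.03), a call lost in 8 of those fits.

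The log2 median over the 19 marker genes was 3.55 to 3.97 in the sham arrays and 3.90 to 4.93 in the TBI arrays at 6 months. At 12 months it was 3.96 to 5.05 in sham and 3.39 to 4.71 in TBI. TBI replicate 1 was the lowest TBI array at both intervals, and sham replicate 1 the lowest sham array at 12 months.

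The promoters of Cd68 and Trem2 are shown because both genes belong to the list with the most called members, and that of Wfs1, which rose, is shown beside them for contrast. Each runs from 250 bases before the transcription start, 5′ to 3′ on the strand of the gene, as RefSeq gives it on build GRCr8, at chr10:54882392-54882691 (Cd68, minus strand), chr9:20151730-20152029 (Trem2, minus strand) and chr14:78034955-78035254 (Wfs1, plus strand). Capitals mark GAGGAA, the core that the myeloid factor PU.1 binds, or its reverse complement TTCCTC.
Cd68: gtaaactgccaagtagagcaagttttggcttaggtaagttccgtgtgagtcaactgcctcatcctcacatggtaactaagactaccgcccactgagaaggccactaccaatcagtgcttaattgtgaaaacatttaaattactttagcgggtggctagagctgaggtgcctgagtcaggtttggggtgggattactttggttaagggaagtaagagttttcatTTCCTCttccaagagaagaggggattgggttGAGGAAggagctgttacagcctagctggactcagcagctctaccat
Trem2: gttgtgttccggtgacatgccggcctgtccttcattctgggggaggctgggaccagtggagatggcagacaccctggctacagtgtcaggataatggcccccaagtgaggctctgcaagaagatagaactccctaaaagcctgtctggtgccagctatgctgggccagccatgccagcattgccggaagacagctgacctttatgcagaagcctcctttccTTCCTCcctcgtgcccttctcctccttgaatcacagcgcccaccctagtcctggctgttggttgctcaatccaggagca
Wfs1: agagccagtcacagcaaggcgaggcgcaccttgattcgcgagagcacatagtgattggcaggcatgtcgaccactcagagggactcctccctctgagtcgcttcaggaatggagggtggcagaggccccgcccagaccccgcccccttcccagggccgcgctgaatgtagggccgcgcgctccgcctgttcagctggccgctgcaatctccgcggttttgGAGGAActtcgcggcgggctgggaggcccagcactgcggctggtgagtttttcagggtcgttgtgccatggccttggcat
The letters occur 2 times in Cd68 and 1 time each in Trem2 and Wfs1. They were present in 29.2% of the 27457 promoters of this length in the table, in 9 of the 12 promoters found for the microglia and macrophage list and in 4 of the 9 found for the excitatory neuron list. A match describes these letters and not a bound site.

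**Figure D2:**
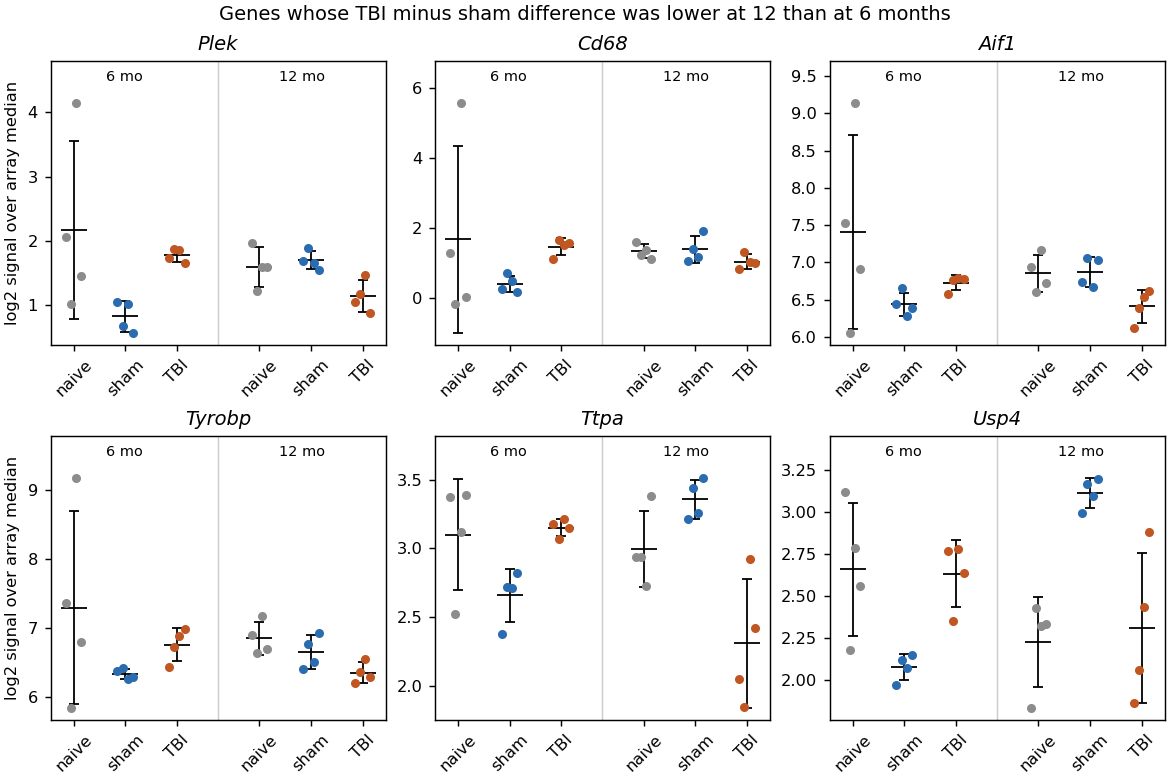
Levels (log2 signal minus the array median) of genes whose TBI effect was lower at 12 months, for naive, sham and TBI at 6 and 12 months, with 1 point per array, a line at the mean of 4 arrays and bars of 1 SD. For Plek the TBI arrays lie at 1.65 to 1.87 against 0.56 to 1.05 in sham at 6 months, and at 0.88 to 1.46 against 1.55 to 1.89 in sham at 12 months.

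Of 15 complement genes, 2 fell (13.3%, against 3.88% of all named genes), Itgb2 among them, and 0 rose. Under the other scalings 1 fell, with all naive arrays 0, and without single arrays 1 to 3. Itgb2, the beta chain of complement receptor 3, was 1.71 to 2.08 in sham and 2.51 to 2.73 in TBI at 6 months, and 2.56 to 2.92 in sham and 2.20 to 2.70 in TBI at 12 months. Its TBI effect was 0.80 at 6 months (adjusted p = 0.0191), with no overlap, and -0.16 at 12 months, with overlap, and differed by -0.95 (SE 0.18, adjusted p = 0.0155). C4a, C3 and C2, components of the cascade, had values of -0.70 (adjusted p = 0.0717), -1.22 (0.138) and -0.70 (0.132). C3 ranged from 4.42 to 5.22 in sham and 4.72 to 5.91 in TBI at 6 months, and from 4.38 to 5.72 in sham and 4.36 to 5.28 in TBI at 12 months, so that the groups overlapped at both intervals.

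MHC class II and interferon response genes had list medians below that of all named genes, without a called member. The 6 MHC class II genes tested had a median difference of -1.15, but the spread within groups was wide. RT1-Da, the alpha chain of a class II molecule, was 1.27, 3.05, 3.73 and 4.21 in sham and 0.89, 2.51, 3.30 and 2.41 in TBI at 12 months, and its difference between intervals was -1.91 (SE 0.92, adjusted p = 0.234). The 17 interferon response genes had a median of -0.34, which was -0.11 without TBI 12 months replicate 1, -0.17 without sham 12 months replicate 2 and -0.20 without sham 6 months replicate 3, and Irf1, a transcription factor induced by interferon, had -0.49 (adjusted p = 0.0598).

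Of 12 acute phase and IL-6 genes tested, 3 fell (25%, against 3.88% of all named genes) and 1 rose (8.33% against 0.565%). The gene that rose was Ngfr, a neurotrophin receptor that also stands in the neurotrophin list below. Under the other scalings 1 to 2 fell, without single arrays 0 to 4, and with all naive arrays or the replicate block 0. The cytokine Il18 differed by -1.03 (SE 0.23, adjusted p = 0.0267), Socs3, which dampens cytokine signaling, by -0.63 (SE 0.14, adjusted p = 0.0286), and the metalloproteinase inhibitor Timp1 by -0.66 (SE 0.18, adjusted p = 0.0469). The Timp1 call was lost under all 3 other scalings and the Socs3 call under 1, and without single arrays the calls were lost in 13 (Timp1), 6 (Il18) and 5 (Socs3) of 16 fits. Stat3, a transcription factor of IL-6 signaling, was 1.58 to 1.81 in sham and 2.14 to 2.43 in TBI at 6 months (0.52, adjusted p = 0.0484) and 2.15 to 2.45 in sham and 2.15 to 2.47 in TBI at 12 months, where the arrays overlapped. Its difference between intervals was -0.49 (SE 0.14, adjusted p = 0.0551). Il1b and Il6 were not well above background on all arrays of any group and were not tested. Of 14 reactive astrocyte genes, Timp1 alone was called (7.14% fell, against 3.88% of all named genes). Vim, an intermediate filament that astrocytes raise after injury, was 0.72 higher in TBI at 6 months (adjusted p = 0.0173) and had a difference between intervals of -0.55 (adjusted p = 0.0563).

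Other genes that reversed without overlap lay outside the inflammatory lists. Ttpa encodes the tocopherol transfer protein, which carries vitamin E. Its levels were 2.38, 2.72, 2.71 and 2.82 in sham and 3.18, 3.07, 3.21 and 3.15 in TBI at 6 months, and 3.21, 3.44, 3.26 and 3.51 in sham and 2.05, 1.85, 2.92 and 2.42 in TBI at 12 months. TBI arrays were all above sham at 6 months (1.41-fold) and all below it at 12 months (2.06-fold), and the difference was -1.54 (SE 0.25, adjusted p = 0.00951).

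Usp4, a deubiquitinating enzyme, had levels of 1.97, 2.12, 2.07 and 2.15 in sham and 2.77, 2.35, 2.78 and 2.63 in TBI at 6 months. At 12 months they were 3.00, 3.16, 3.09 and 3.20 in sham and 1.87, 2.06, 2.43 and 2.88 in TBI. The sham arrays at 12 months were the highest of the 16, and the difference between intervals was -1.36 (SE 0.24, adjusted p = 0.013). Nudt9, an ADP-ribose pyrophosphatase, Rab9a, a GTPase of transport from late endosomes to the Golgi, and the zinc finger gene Zfp879 reversed in the same way, with differences of -1.37 (SE 0.24), -1.25 (SE 0.24) and -1.51 (SE 0.25) and adjusted p of 0.012, 0.0166 and 0.0105. Herpud1, a component of the degradation of proteins from the endoplasmic reticulum, differed by -1.25 (adjusted p = 0.039), and Dscc1, which acts in DNA replication and sister chromatid cohesion, by -1.74 (adjusted p = 0.0368). Both calls were lost under the 3 other scalings and in 11 of the 16 fits that leave out 1 array.

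The following genes had signals near background. Ctnnal1, an alpha-catenin-like protein, was not well above background on any sham array at 6 months, and was above it on 1 of 4 TBI arrays at 12 months. At 6 months it was at least 1.26-fold higher in TBI, where 3 of 4 arrays were well above background, than in sham. The difference between intervals had an adjusted p of 0.00278, and no size is given for it, since the sham arrays at 6 months give only a bound. Tnfsf4, the ligand OX40L of a T cell costimulatory receptor, was not well above background on any TBI array at 12 months. It was at least 1.46-fold lower in TBI than in sham at that interval, and the difference between intervals had an adjusted p of 0.0181, for which no size is given either. Both genes were tested only because sham at 12 months, a group in which they were high, passed the filter for signal, and neither was tested when all 16 arrays had to pass. Such a bound was computed as the mean of the brighter group against the lowest signal accepted as above background on each array of the dimmer group. Clec12a, an inhibitory lectin receptor of myeloid cells, gave -2.01 (SE 0.40, adjusted p = 0.0198) with 1 of 4 sham arrays at 6 months well above background, and Ppp1r36, a subunit of protein phosphatase 1, gave -1.94 (SE 0.44, adjusted p = 0.0284). The Clec12a call was lost under 1 other scaling, and the Ppp1r36 call in 4 of the 16 fits that leave out 1 array. Neither gene, nor Zfp879 or Dscc1, was tested when all 16 arrays had to pass the filter.

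Wfs1 had the largest positive value among the 12 reversed genes named in this direction. It encodes wolframin of the endoplasmic reticulum, which marks CA1 pyramidal neurons. Its levels were 6.23, 6.48, 6.11 and 6.23 in sham and 5.34, 5.95, 5.86 and 5.59 in TBI at 6 months, and 5.66, 5.97, 5.74 and 5.74 in sham and 6.83, 6.64, 6.18 and 6.36 in TBI at 12 months. TBI arrays were all below sham at 6 months (1.49-fold) and all above it at 12 months (1.66-fold), and the difference between intervals was 1.30 (SE 0.22, adjusted p = 0.0101). It was the 1 called gene of the 12 dentate and CA field genes tested (8.33% rose, against 0.565% of all named genes), whose median was -0.02.

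Adam23, a neuronal surface protein that binds the epilepsy protein Lgi1, had levels of 0.63, 0.76, 0.46 and 0.77 in sham and 0.28, -0.16, -0.03 and -0.04 in TBI at 6 months. At 12 months they were 0.02, 0.04, 0.35 and -0.22 in sham and 0.77, 0.39, 0.52 and 0.82 in TBI. The order of the groups was reversed without overlap, with a difference of 1.22 (SE 0.19, adjusted p = 0.00829). Both Wfs1 and Adam23 kept their calls when any of the 16 arrays was left out.

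The other 10 of the 12 genes named in this direction rose by smaller amounts. Tubb3, the neuronal beta-tubulin, was 8.51 to 8.73 in sham and 8.21 to 8.49 in TBI at 6 months, and 8.05 to 8.31 in sham and 8.46 to 8.70 in TBI at 12 months, a difference of 0.64 (SE 0.12, adjusted p = 0.0174). Sv2a, the vesicle glycoprotein bound by levetiracetam, was 7.63 to 7.74 in sham and 7.29 to 7.52 in TBI at 6 months, and 7.55 to 7.62 in sham and 7.74 to 7.92 in TBI at 12 months, a difference of 0.51 (SE 0.09, adjusted p = 0.0141). For both genes the arrays of TBI and sham did not overlap at either interval. Nefh, the heavy neurofilament, differed by 0.68 (SE 0.16, adjusted p = 0.0302), and Ankrd34b, an ankyrin repeat gene, by 1.05 (SE 0.26, adjusted p = 0.0355). The remaining 6 were Mboat7, which acylates lysophosphatidylinositol, and Por, which passes electrons to cytochromes P450, with 0.61 and 0.56, and Gsk3b, Ppp2r5b, Apeh and Tgfbrap1, with 0.35 to 0.45. Gsk3b, a kinase of tau and of Wnt signaling, was read from 4 probes, of which 3 gave the same sign, and Apeh from 2, of which 1 did. Of the 16 fits that leave out 1 array, the call was lost in 15 for Gsk3b and Apeh, 14 for Tgfbrap1, 13 for Ppp2r5b, 11 for Ankrd34b, 7 for Nefh, 3 for Mboat7 and Por, and 0 for Tubb3 and Sv2a.

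**Figure D3:**
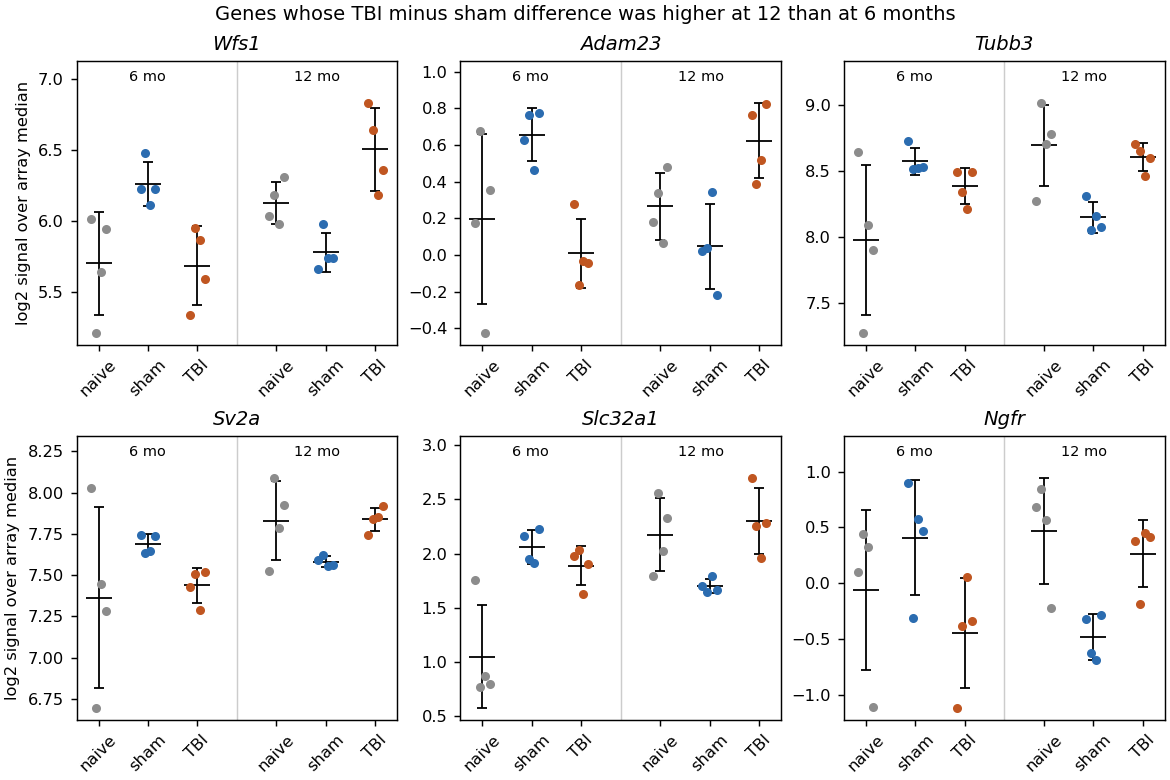
Levels (log2 signal minus the array median) of genes whose TBI effect was higher at 12 months, for naive, sham and TBI at 6 and 12 months, with 1 point per array, a line at the mean of 4 arrays and bars of 1 SD. For Wfs1 the TBI arrays lie at 5.34 to 5.95 against 6.11 to 6.48 in sham at 6 months, and at 6.18 to 6.83 against 5.66 to 5.97 in sham at 12 months.

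The 19 excitatory neuron and synapse genes had 18 positive values and a median of 0.26 (all named genes -0.06), with 0 called. Under the other scalings 1 to 2 rose, without single arrays 0 to 1, and with all naive arrays or the replicate block 0. Syn1, which tethers synaptic vesicles, had 0.47 (adjusted p = 0.0761), the NMDA receptor subunit Grin1 0.47 (0.109) and the vesicular glutamate transporter Slc17a7 0.51 (0.286). Syn1 was called in 5 of the 25 alternatives, and the list median stayed between 0.17 and 0.44 in all of them. Of 13 inhibitory neuron genes, 2 rose (15.4%, against 0.565% of all named genes) and 0 fell, and the median was 0.20. Slc32a1, which loads GABA and glycine into vesicles, was 1.91 to 2.22 in sham and 1.63 to 2.03 in TBI at 6 months, and 1.65 to 1.80 in sham and 1.96 to 2.70 in TBI at 12 months. The groups were apart at 12 months, and the difference was 0.77 (SE 0.19, adjusted p = 0.0364). Lhx6, a transcription factor of interneurons, differed by 0.43 (SE 0.11, adjusted p = 0.0405), and these calls were lost in 10 (Slc32a1) and 13 (Lhx6) of the 16 fits that leave out 1 array, and both with the replicate block. Reln, the secreted glycoprotein of some interneurons, had 0.71 (adjusted p = 0.0948).

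Ngfr, the p75 receptor for neurotrophins, was the 1 called gene of the 12 neurotrophin genes (8.33% rose, against 0.565% of all named genes). It was 0.90, -0.31, 0.58 and 0.47 in sham and -1.12, -0.38, 0.05 and -0.33 in TBI at 6 months. At 12 months it was -0.32, -0.62, -0.69 and -0.28 in sham and 0.38, -0.18, 0.45 and 0.41 in TBI. The arrays overlapped at 6 months, where 1 TBI array was not well above background, and were apart at 12 months, and the difference was 1.59 (SE 0.37, adjusted p = 0.0302). The call was lost in 8 of the 16 fits that leave out 1 array, and the gene was not tested when all 16 arrays had to pass the filter. Drd2, a dopamine receptor that inhibits adenylyl cyclase, was 1.97 to 2.54 in sham and 1.53 to 2.60 in TBI at 6 months, and 1.48 to 2.16 in sham and 2.29 to 3.11 in TBI at 12 months. Its difference of 1.20 (SE 0.34) had an adjusted p of 0.0591. Drd1, the dopamine receptor that stimulates the cyclase, had 0.47 (adjusted p = 0.322), and Creb5, a transcription factor of the CREB family, 0.29 (0.744). Of 17 genes of cAMP signaling, Adcy2, an adenylyl cyclase, rose by 0.36 (SE 0.10, adjusted p = 0.0471). It was the 1 called gene of that list (5.88% rose, against 0.565% of all named genes), a call lost in 14 of the 16 fits that leave out 1 array.

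Of 19 respiratory chain genes, 3 fell (15.8%, against 3.88% of all named genes) and 0 rose. The median was -0.15, and lay between -0.29 and -0.02 in the alternatives, with 1 to 2 calls under the other scalings, 1 to 5 without single arrays and 0 with all naive arrays or the replicate block. Ndufs4, a subunit of complex I, was 4.66 to 4.84 in sham and 5.05 to 5.27 in TBI at 6 months, and 4.80 to 4.96 in sham and 4.57 to 4.89 in TBI at 12 months, a difference of -0.61 (SE 0.11, adjusted p = 0.015). The arrays were apart at 6 months and overlapped at 12 months. Uqcrb of complex III differed by -0.64 (SE 0.15, adjusted p = 0.0301) and Cox7a2 of complex IV by -0.39 (SE 0.10, adjusted p = 0.0353). Of 19 heat shock and proteostasis genes, 2 fell (10.5%, against 3.88%), with 1 under the other scalings, 1 to 3 without single arrays and 0 with all naive arrays or the replicate block. The mitochondrial chaperonin Hspd1 fell by 0.40 on the log2 scale (SE 0.08, adjusted p = 0.019) and the cytosolic chaperone Hsph1 by 0.56 (SE 0.14, adjusted p = 0.0351). The calls of Cox7a2 and Hsph1 were lost under the 3 other scalings and that of Uqcrb under 1. Of the 16 fits that leave out 1 array, Cox7a2 lost its call in 12, Hsph1 in 10 and Uqcrb in 6, and Ndufs4 and Hspd1 in 0.

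Among the other lists, Per3 of the circadian clock rose by 0.42 (SE 0.11, adjusted p = 0.0429). It was the 1 called gene of 13 (7.69% rose, against 0.565% of all named genes), a call lost in 14 of the 16 fits that leave out 1 array. Pdgfra, the growth factor receptor of oligodendrocyte precursors, fell by 0.72 (SE 0.16, adjusted p = 0.0267). It was the 1 called gene of 16 of the oligodendrocyte list (6.25% fell, against 3.88% of all named genes), a call lost under 2 other scalings and in 4 of those fits. The T cell chemokine Ccl5 fell by 1.51 (SE 0.38, adjusted p = 0.0383), a call lost under the 3 other scalings and in 11 of those fits. No gene was called among 16 immediate early, 20 semaphorin and axon guidance, 12 hypoxia and glycolysis and 12 dopamine receptor and striatum genes. In alternatives, however, Sema4f, an axon guidance ligand with 0.74 (adjusted p = 0.0544), was called in 6, among them all 3 other scalings, and Drd2 in 5. Of all named genes tested, 0.565% rose and 3.88% fell at the adjusted p of these calls, so lists of this size can hold 0 calls. The looser unadjusted p under 0.05 was passed by 22.6% of all probes.

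Markers of tissue that borders the hippocampus were read in the same arrays. Of 8 choroid plexus genes 0 were called, but their median was -1.06 at 12 months and -1.35 for the difference between intervals, and sham 12 months replicate 3 stood far above the other 15 arrays. In that array Aqp1, a water channel, was 5.49 against 1.24 to 1.47 in the other sham arrays of the interval, and Folr1, a folate receptor, was 6.35 against 0.46 to 1.93. Without it the median difference was -0.44. The summed level of the 8 genes ran from 7.65 to 12.80 in sham at 12 months, and Ttr, the main transcript of the choroid plexus, is one of them. Of 7 blood genes 0 were called, with a median difference of -1.25, and without TBI 6 months replicate 3, in which the hemoglobin gene Hbb was 10.17 against 7.92 to 8.02, it was -0.72. Medians were -0.47 for 7 ependymal (-0.14 without sham 6 months replicate 3), -0.59 for 12 meningeal, -0.10 for 13 endothelial, -0.11 for 10 thalamic and 0.32 for 8 cortical layer genes, with 0 called in each. The part of these cells in the differences above was not tested. When sham 12 months replicate 3 was left out, 881 probes were called in place of 1202. Of the 44 called genes among the 73 described here, 14 lost their call in that fit. Plek, Cd68, Ttpa, Usp4, Wfs1 and Adam23 kept theirs, as they did when any other single array was left out.

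**Figure D4:**
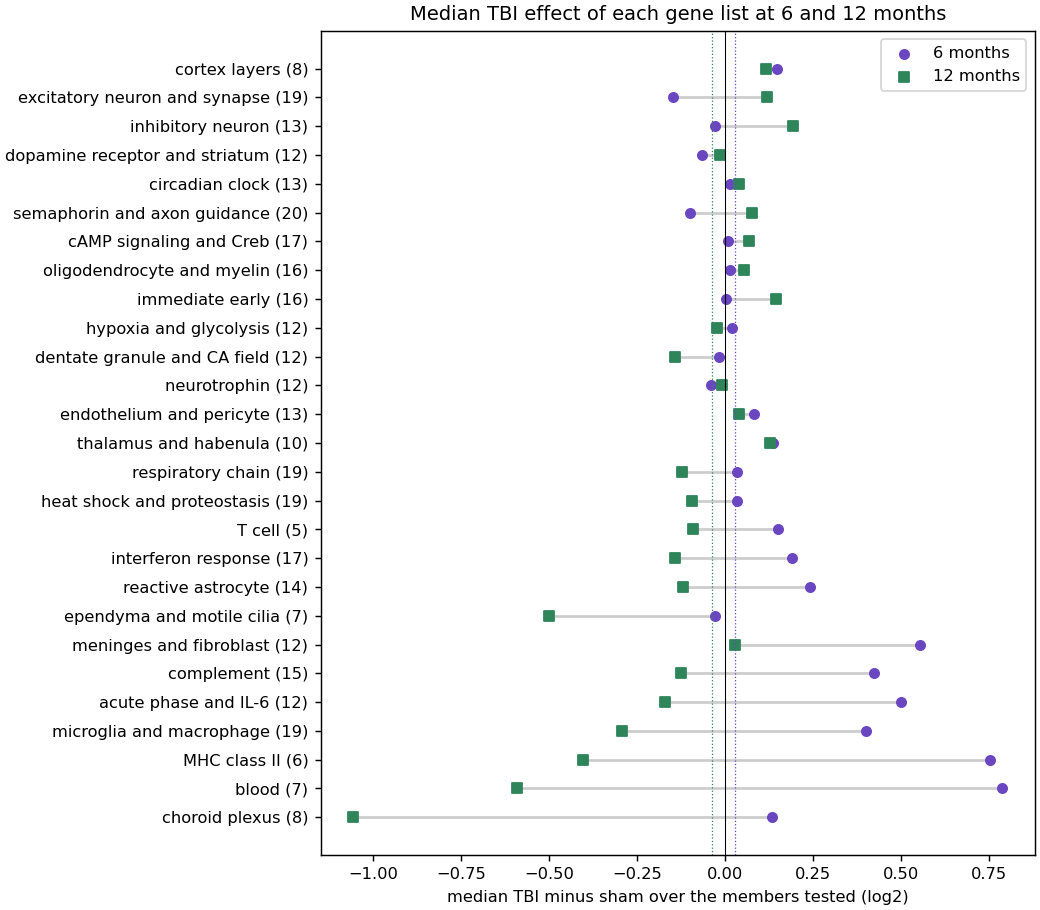
Median over the tested genes of each list of TBI minus sham (log2, horizontal axis) at 6 months (circles) and at 12 months (squares), with the number of genes behind each list's name and dotted lines at the medians of all named genes. The microglia and macrophage list moves from 0.40 to -0.29 and the excitatory neuron list from -0.15 to 0.12, against 0.03 and -0.04 for all named genes.

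The naive arrays show where sham and TBI stood against rats without surgery. They share arrays with the comparison and are given as a description. In the fit of 24 arrays, sham differed from naive in 1797 probes (7.08%) at 6 months and 315 (1.24%) at 12 months, and TBI from naive in 1832 (7.22%) and 126 (0.496%). For the 421 probes above sham at 6 months and below it at 12 months, the median of sham minus naive was -0.30 at 6 months and 0.15 at 12 months, and that of TBI minus naive 0.01 and -0.17. The naive mean was nearer to TBI than to sham in 77.9% of these probes at 6 months and in 46.6% at 12 months, against 52.8% and 51.1% of all probes. Leaving out naive 6 months replicate 1 moved the first share to 48.2% and leaving out replicate 2 to 95.5%, so that it rests on single naive arrays. For the 30 probes of the opposite order the median of sham minus naive was 0.38 at 6 months and -0.16 at 12 months, and that of TBI minus naive 0.10 and 0.11. In naive 6 months replicate 3 the median over the 19 microglial genes was 6.25, against 3.29 to 4.67 in the other naive arrays of that interval.

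In the cortex the same comparison called 127 of 26353 probes (0.482%), 2 of them (0.00759%) unnamed and higher at 12 months (A_44_P1131608 and A_44_P376556) and 125 (0.474%) lower. In the fit that held both tissues the hippocampal comparison called 1385 probes (5.26%), of which 45 were called in both, 3.25% of the hippocampal and 35.4% of the cortical calls, all 45 with the same sign. Of the 24 reversed genes named above, 18 had the same sign in cortex, and Plek, at -1.27 (adjusted p = 0.0463), was the 1 called there. The share of all tested probes with the same sign was not computed, so the 18 cannot be set against it. The cortical arrays were laid out like those of hippocampus. Sham at 6 months lay in row 2 of slide 4 and TBI at 6 months in row 1 of slide 5. Sham and TBI at 12 months lay in rows 1 and 2 of slide 6. Slide or row thus cannot be told apart from group in cortex either, and their part in the shared signs was not tested. The number called in one tissue and not in the other is not a test of the tissues. The test of the difference itself called 3 probes (0.0114%), with 1930 (7.32%) at an unadjusted p under 0.05.

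Ttpa was 1 of the 3, with -1.54 in hippocampus and 0.33 in cortex, a difference of -1.86 (SE 0.32, adjusted p = 0.0335). The others were an unnamed probe, A_44_P1105523 (-1.31, SE 0.22), and 1 probe of Kcnk1, a potassium channel, which was named after its value was seen (-1.48, SE 0.24). A second probe of Kcnk1 gave -0.22 in hippocampus where this one gave -1.34. Leaving out single arrays gave 0 to 5 such probes. Cortex and hippocampus may come from the same rats, which the fit treated as independent.

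**Figure D5:**
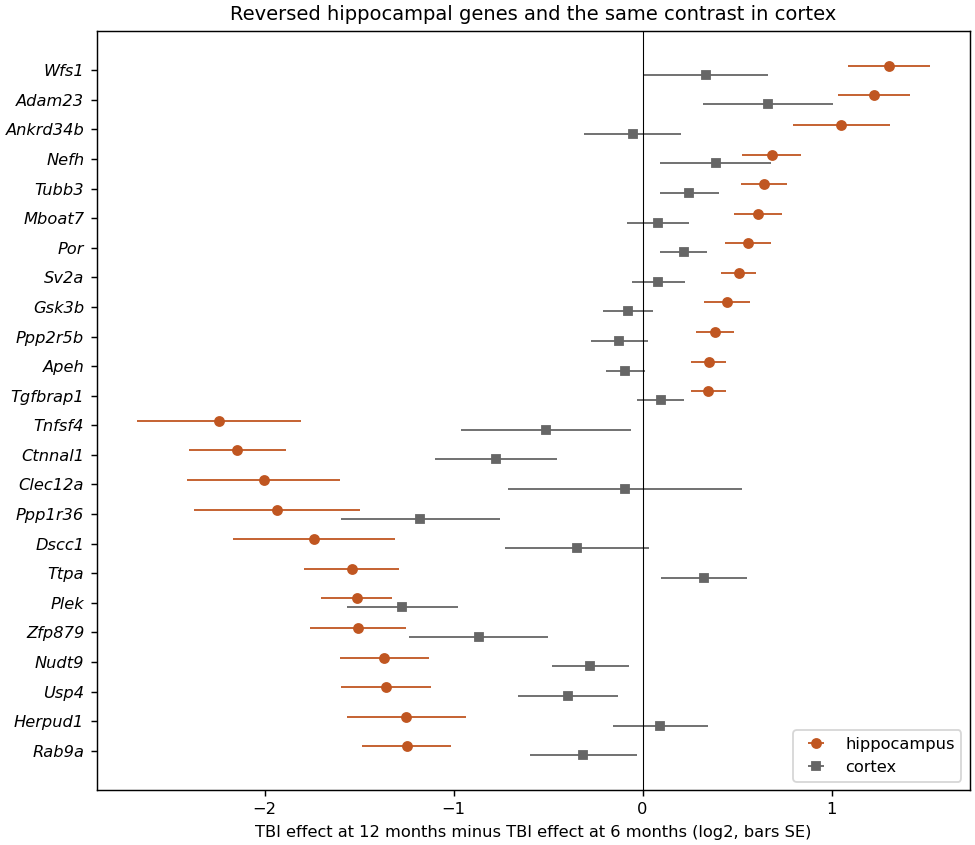
Difference of the TBI effect between 12 and 6 months (log2) on the horizontal axis for the 24 reversed genes named in the text (1 per line), in hippocampus (circles) and cortex (squares), with bars of 1 SE. Ttpa stands apart, at -1.54 in hippocampus and 0.33 in cortex. In both tissues 18 of the 24 genes have the same sign, and the share over all probes was not computed. The hippocampal values of Tnfsf4 and Ctnnal1 include arrays not well above background.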

How the data were processed

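Hippocampal RNA of each rat was hybridized to 1 Agilent array with 1 dye, and the authors deposited the intensity of each spot from Agilent Feature Extraction (version 11.5.1.1 in the file headers). That software subtracted the background, removed spatial trends and gave dim spots surrogate values, but did not scale arrays to each other. Its flags, also deposited, were used for signal above background, saturation and uneven spots. A table of the authors' values was used as an alternative, and its log2 column medians lie between -4.06 and -3.06. In its hippocampal columns, 84.1% to 99.9% of values lay within 0.05 log2 of the processed signal over a single constant. That constant was near percentile 75 (74.9 to 75.3), although the methods name the median. Of 45598 probes, 46.3% had a gene symbol through the deposited RefSeq identifiers joined to a RefSeq gene table, and the others stay unnamed.

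In R 4.3.3, spots of a probe were averaged without control and uneven spots (1546 in the 16 arrays), log2 of the processed signal was taken and the median of the array was subtracted, as in the study's methods. Probes were tested if at least 1 of the 4 groups had them well above background on all its arrays, using limma 3.58.1 (lmFit, contrasts.fit, eBayes), 1 mean per group and no block, and p-values were adjusted by Benjamini-Hochberg over all of them. The 4 samples of a group are labelled as separate samples, and their number limits the precision. Naive arrays were fitted with the 16 (24 arrays), as were those of cortex (32 arrays). A gene was read from its brightest probe. Named genes are up to 12 per direction with the largest called value and a reversal without overlap, up to 4 per list with the smallest p, and genes the study names at these intervals. The members, the 27 lists, the tests and the rule were chosen with earlier results of these data known, so list counts are descriptions and no list was tested. Values of some genes under this rule are not reported here. The fit was tested on simulated data. Alternatives were the 75th percentile, quantile normalization, the authors' table, another background correction (normexp, offset 50), other filters, added naive arrays, the replicate number as a block, and leaving out each array. Promoter sequences are from RefSeq.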

Additional observations from a re-analysis of the deposited data

Results flagged for a closer look

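The TBI effect differed between 6 and 12 months by the test of the difference itself in 1202 hippocampal probes. The hippocampal difference in turn departed from the cortical one for an unnamed probe (-1.31), Ttpa (-1.86) and 1 probe of Kcnk1 (-1.48).

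In 292 groups of 4 arrays, over the 73 genes, the gap between the most extreme array and its neighbor took more of the range of the group than Dixon's 95% critical value in 22 (7.53%), where chance gives about 1 in 20. In sham at 6 months the shares were 0.915 for Tubb3 (replicate 1 high), 0.858 for Tnfsf4 and 0.959 for Folr1 and 0.857 for Cfap126 (replicate 3 low in each), and 0.902 for Cd74 (replicate 2 low). In TBI at 6 months they were 0.892 for Por (replicate 4 low), 0.947 for Creb5 and 0.872 for Aif1 (replicate 1 low in both), 0.952 for Hbb (replicate 3 high) and 0.893 for Lhx6 (replicate 1 high). In sham at 12 months they were 0.901 for Ccl5 (replicate 1 low), 0.855 for Hbb and 0.947 for Aqp1 (replicate 3 high in both), 0.851 for Syn1 (replicate 3 low) and 0.858 for Egr1 (replicate 4 low). In TBI at 12 months they were 0.872 for Ctnnal1 and 0.886 for Ngfr (replicate 2 low in both), 0.905 for Ppp1r36 and 0.962 for Itgb2 (replicate 1 low in both), 0.853 for Rab9a (replicate 4 low), 0.934 for Vim (replicate 2 high) and 0.906 for Sema4f (replicate 3 low). Of these genes, Tubb3, Rab9a, Itgb2, Tnfsf4 and Ctnnal1 kept their call for the difference between intervals when any single array was left out. Tnfsf4 and Ctnnal1 had signals near background.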

How the results depend on the processing

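None of the 73 genes changed the sign of its difference between intervals in any alternative in which it was tested. The median difference over all tested probes was -0.07, but 0.02 with the 75th percentile and 0.14 without a filter. Some list medians near 0 changed sign, such as that of the dentate and CA field genes in 9 of 25 alternatives. The difference between intervals called 1202 probes, and 705 with the 75th percentile, 801 with the authors' table, 561 with normexp, 76 without a filter, 3 with all naive arrays, 623 with the naive arrays of 12 months and 119 with the replicate number as a block. Calls at 6 months (44) numbered 28 with the 75th percentile, 25 with quantile normalization, 21 with the authors' table, 1 with normexp, 4 without a filter, 5 with all naive arrays and 0 with the block. Calls at 12 months (1) numbered 0 with those 3 scalings, without a filter and with either set of naive arrays, 6 with normexp and 252 with the filter in all 16 arrays. Reversals at the study's thresholds (122) numbered 77 with the 75th percentile, 79 with the authors' table, 36 with normexp, 224 without a filter and 57 with the filter in all 16 arrays. Reversals without overlap (451) numbered 266 with the authors' table and 181 with normexp. The causes were not tested.

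Leaving out single arrays gave 267 to 2169 calls for the difference, 15 to 66 at 6 months, 0 to 1267 at 12 months, 93 to 159 reversals at the thresholds and, over the arrays left, 487 to 704 without overlap. Sham minus naive called 1797 probes at 6 months (4580 with the 75th percentile, 1332 to 4439 without single arrays) and 315 at 12 months (1662, 197 to 707), and TBI minus naive 1832 (3590, 1361 to 4485) and 126 (1315, 83 to 579). The cortex called 127 probes, and 30 with the 75th percentile, 66 with quantile normalization, 30 with the authors' table, 5324 without a filter and 20 to 404 without single arrays. The difference between tissues called 3 probes, 0 without a filter and 0 to 5 without single arrays.

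The deviations of same-numbered sham and TBI arrays from their group means correlated at -0.11 to 0.16 in 8 pairs. Such values cannot show that these arrays share nothing else, and a shared technical step was not tested. Of the 44 called genes among the 73, 33 lost their call with the replicate block and 44 with all naive arrays. Normexp used the median signal and was, like the fit with the naive arrays of 12 months, chosen after seeing the data; the version on the mean signal was not run. Slide as a random block could not be fitted, because each group lay on 1 slide, and for TBI against sham at 6 months slide and group cannot be told apart.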

Other observations

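Genes of the cytosolic ribosome, taken by their symbols, are a set chosen after values were seen. Of 84 such genes tested, 9 fell (10.7%, against 3.88% of all named genes) and 0 rose. The difference between intervals was negative for 83 of them, with a median of -0.28 (all named genes -0.06). Of the 84, 76 had a positive value at 6 months and a negative value at 12 months, as did 38.5% of all named genes. The median over the genes was 0.06 at 6 months and -0.23 at 12 months. Of the called genes, Rpl36al1 had the largest difference, -1.23 (adjusted p = 0.00328, limma), and Rps7 had -0.69 (0.0438). Rpl22l1, Rpl30l3 and Rpl39l1 had -1.36, -1.29 and -1.26 without being called, and the 1 positive value was 0.43 for Rpl3l. With the 3 other scalings 78 to 83 of the genes stayed negative, with medians of -0.22 to -0.15, and 2 to 3 fell. With all naive arrays 0 fell and with the replicate block 1, and leaving out single arrays gave 2 to 23 calls, the highest without TBI 12 months replicate 3.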
